A study of Mus musculus with 8 samples.

Results

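Tuba1b, an alpha-tubulin gene, and Actb, the gene of cytoplasmic beta-actin, were followed in mouse skeletal muscle at birth and in the young adult. They are 2 of the 15 genes that the array repeats on 20 spots each, out of 112 genes that could be given a symbol among its 59709 probes. Each was found by the RefSeq transcript printed on its only probe, NM_011654.2 for Tuba1b and NM_007393.3 for Actb, matched without version numbers to a RefSeq gene table. The muscles came from ICR mice, an outbred strain, with no treatment named in the labels, at postnatal day 0 (D0, 4 samples) and postnatal day 65 (D65, 4 samples). RNA depleted of ribosomal RNA was labelled with Cy3 and read on 8 one-colour arrays. The labels do not say which muscle was taken, whether animals were pooled or whether each sample is a different animal. The p-values therefore reflect only how far these 8 samples scatter, part of which may be technical.

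Alpha-tubulin pairs with beta-tubulin, and the pairs assemble into microtubules, the tracks along which cells move cargo and the scaffold that lines up along the axis of a forming muscle fibre. Cells tune tubulin output by degrading tubulin mRNA when free tubulin pairs are plentiful. Beta-actin forms the thin filaments of the cell cortex and of migrating and fusing myoblasts, whereas the contractile thin filaments of mature fibres are built mainly of a separate actin, the product of Acta1. Both genes are widely used as references for RNA loading.

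Tuba1b lies on mouse chromosome 15, where its next protein-coding neighbour on one side is Tuba1a, a gene for a near-identical alpha-tubulin. Actb lies on chromosome 5 between Fbxl18 and Fscn1. The start of Tuba1b is shown because its ages were separate on all arrays and its promoter could be matched. The 250 bases before it (chr15:98934391-98934640, minus strand, RefSeq sequence on GRCm38.p6) read 5′ to 3′, with matches to the GC box GGGCGG on either strand in capitals:

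Tuba1b: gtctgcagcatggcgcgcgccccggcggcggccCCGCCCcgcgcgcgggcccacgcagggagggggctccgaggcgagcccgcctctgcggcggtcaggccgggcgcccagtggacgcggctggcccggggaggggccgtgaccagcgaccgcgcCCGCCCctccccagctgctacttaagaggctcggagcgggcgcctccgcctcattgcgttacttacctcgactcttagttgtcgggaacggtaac

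The stretch held 2 GC boxes, both on the strand opposite the gene, starting 217 and 95 bases before the gene start. A GC box was present in the same window of 32.7% of 32851 RefSeq promoters. The letters CCAAT and TATAAA, searched on both strands, had 0 matches there and were present in 33.8% and 12.4% of these promoters. Of its bases 75.6% were G or C, against a median of 52.4% over all promoters. A promoter of Actb was not matched.

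At the level of the whole series, the D0 arrays had 63.1% to 68.4% of probes well above background, more than any D65 array (52.3% to 60.7%). All 20 spots of Tuba1b and all 20 of Actb were well above background on every array, and 0 were saturated. D0 replicate 4 stood apart. Its levels correlated with the other D0 arrays at 0.886 to 0.913 (Spearman, across probes, which are not independent replicates), against 0.942 to 0.973 among those 3. The main results below are therefore also given without D0 replicate 4. The array code in the file headers starts with 1 on every D0 array and with 2 on every D65 array, so what that code stands for and age cannot be told apart.

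Tuba1b fell by D65. A level here is the mean over spots of log2 processed signal minus the 75th percentile of that array. At D0 the levels of Tuba1b were 8.55, 8.62, 8.97 and 9.67 in replicates 1 to 4, and at D65 they were 6.94, 6.65, 6.86 and 6.50. Every D0 array lay above every D65 array, with a gap of 1.62 between the lowest D0 and the highest D65 value. The mean level was 8.95 ± 0.51 in the 4 newborn samples and 6.74 ± 0.20 in the 4 adult ones (SD, n = 4). The log2 difference was -2.22 (SE 0.27, 95% interval -2.83 to -1.61), or 4.65-fold lower at D65, with a limma adjusted p of 0.000269. An exact two-sided permutation test over the 8 arrays gave p = 0.0286, the smallest that 70 relabelings allow. The log2 difference was -1.98 without D0 replicate 4 (SE 0.20, limma adjusted p 0.000179). That was the smallest fall of the 8 fits that each left out 1 array. Since these are bulk samples, fewer cells rich in Tuba1b RNA and less of it per cell cannot be told apart.

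Actb was also called lower at D65, but its ages overlapped. Its levels at D0 were 6.68, 6.75, 7.06 and 5.47 in replicates 1 to 4, and at D65 they were 4.93, 5.53, 5.43 and 5.56. D0 replicates 1 to 3 lay above all D65 arrays, while D0 replicate 4 lay within the D65 range. Its mean level was 6.49 ± 0.70 at D0 and 5.36 ± 0.29 at D65 (SD, n = 4). The log2 change was thus -1.13 (SE 0.34, 95% interval -1.89 to -0.37), or 2.18-fold. The limma adjusted p was 0.031, and the exact two-sided permutation test gave p = 0.0857. Without D0 replicate 4 the difference was -1.47 (SE 0.22, limma adjusted p 0.00118). Leaving out any other single array ended the call, with differences from -1.19 to -0.94 and limma adjusted p from 0.055 to 0.0805. Of these, only the values without D0 replicate 3 (-0.94) and without D65 replicate 1 (-0.98) were also under the minimum change of 1.

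**Figure D1:**
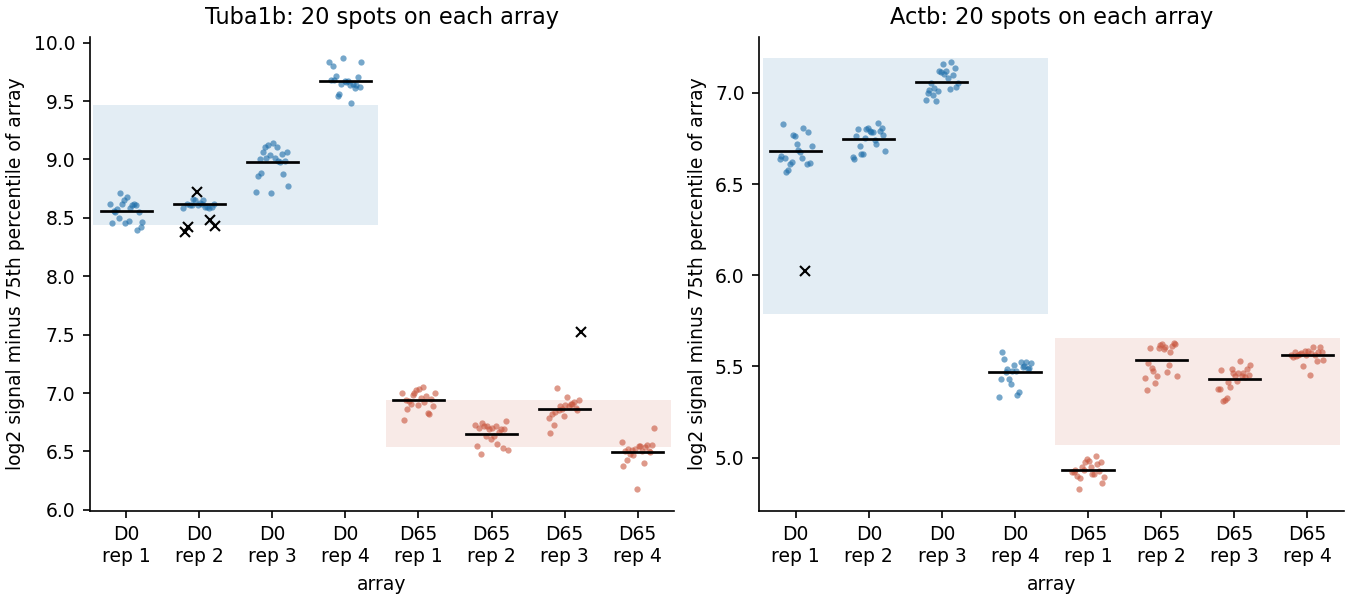
Level (log2 processed signal minus the 75th percentile of the array) of each of the 20 spots of Tuba1b (left) and Actb (right) on the 8 arrays. Dots are spots, crosses are spots that the scanner software marked as outliers and that were left out, black lines are array means and shaded bands are mean ± SD over the 4 arrays of an age. The 2 panels have separate vertical scales. Tuba1b separates the ages on every array, while Actb on D0 replicate 4, at 5.47, lies among the D65 arrays.

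A call means a limma adjusted p under 0.05 together with a log2 difference of at least 1. By that rule 12.6% of the 34948 probes tested were called lower at D65, and 22.1% were called in either direction. Ages that did not overlap, as for Tuba1b, were found for 16.4% of probes in the lower direction and 31.5% in either. With D0 replicate 4 set aside, where the Actb ages did not overlap either, the lower share was 21.6%. The fall of Tuba1b was exceeded by 1407 of the tested probes, which places it at percentile 4.03 of all differences. Actb stood at percentile 12.6, with 4392 probes showing a larger fall. The median difference over all tested probes was 0.06.

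The spread among the 20 spots was small beside the spread among arrays. For Tuba1b the SD over spots within an array was 0.02 to 0.13 on the log2 scale, with a median of 0.088, against an SD between arrays of 0.51 at D0 and 0.20 at D65. The lowest of these values, on D0 replicate 2, followed the removal of 5 spots marked as outliers, and was 0.086 with them kept. For Actb the SD over spots was 0.04 to 0.08, with a median of 0.064, against 0.70 and 0.29 between arrays. With outlier spots kept, the highest SD over spots was 0.170 for Tuba1b, on D65 replicate 3, and 0.166 for Actb, on D0 replicate 1. With outlier spots left out, the mean over spots carried an SE of at most 0.029 for Tuba1b and 0.019 for Actb. Spots of an array repeat the measurement of 1 sample and do not add to n.

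Each spot sits at the same place on all 8 arrays, so the comparison of ages could be repeated at each place. At the 15 places where Tuba1b kept its spot on all 8 arrays, its difference ranged from -2.25 to -2.15, and its ages were separate at 15 of 15. The other 5 places lacked at least 1 array after outlier spots were left out, and with them the range reached -2.41. At the 19 such places of Actb the difference ranged from -1.17 to -1.07, and its ages were separate at 0 of 19. The low Actb level of D0 replicate 4 was likewise found at every place, with deviations of -1.52 to -1.27 from the mean of the other D0 arrays. All places repeat the same 8 samples, so none of these counts is a separate check of the array means.

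On 5 arrays the scanner software had applied a multiplicative correction for a smooth trend over the array surface. On these, undoing it widened the SD over Actb spots from between 0.035 and 0.079 to between 0.078 and 0.160. For Tuba1b the range went from between 0.076 and 0.102 to between 0.060 and 0.134. The differences between ages hardly moved, to -2.21 for Tuba1b and -1.12 for Actb.

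Before scaling, the pair behaved differently on D0 replicate 4. The mean processed signal of Tuba1b, on the linear intensity scale, was 102606, 121251, 129148 and 111767 in D0 replicates 1 to 4. Replicate 4 thus lay within the range of the other D0 arrays. At D65 the signal was 16222, 12139, 16994 and 13694. The signal of Actb was 27954, 33253, 34188 and 6051 at D0, with replicate 4 lower than the other D0 arrays by a factor of 5.23 (geometric mean of those 3). At D65 it was 4032, 5592, 6285 and 7147, a range that holds the D0 replicate 4 value. The bright corner control spots of the array had a median signal of 15127 to 16918 on D0 replicates 1 to 3 and 11193 on D0 replicate 4. On the D65 arrays their median was 7563 to 10462. The 75th percentile of D0 replicate 4 was 7.09 on the log2 scale. It lay 0.91 to 1.18 under those of the other D0 arrays and within the D65 range of 6.91 to 7.24. Scaling therefore raised both genes on that array, which put Tuba1b 0.96 above the mean of the other D0 arrays and left Actb 1.36 below it (log2 deviation -1.36).

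These deviations can be read against all tested probes, of which 90% deviated on D0 replicate 4 by between -1.60 and 1.31, with a median of 0.30. Of the tested probes, 12.9% deviated upwards by more than Tuba1b and 6.78% downwards by more than Actb. Among the other 13 genes with 20 spots, the deviations ran from -1.56 to 0.66. Tbp (-1.56), Nono (-1.46) and Hsp90ab1 (-1.35) lay close to Actb, and Tuba1b had the highest value of the 15. Tbp encodes the TATA-binding protein of transcription initiation, Nono a paraspeckle protein that binds RNA, and Hsp90ab1 a cytosolic chaperone. The part that the state of this sample or array plays in the Actb result was not tested.

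**Figure D2:**
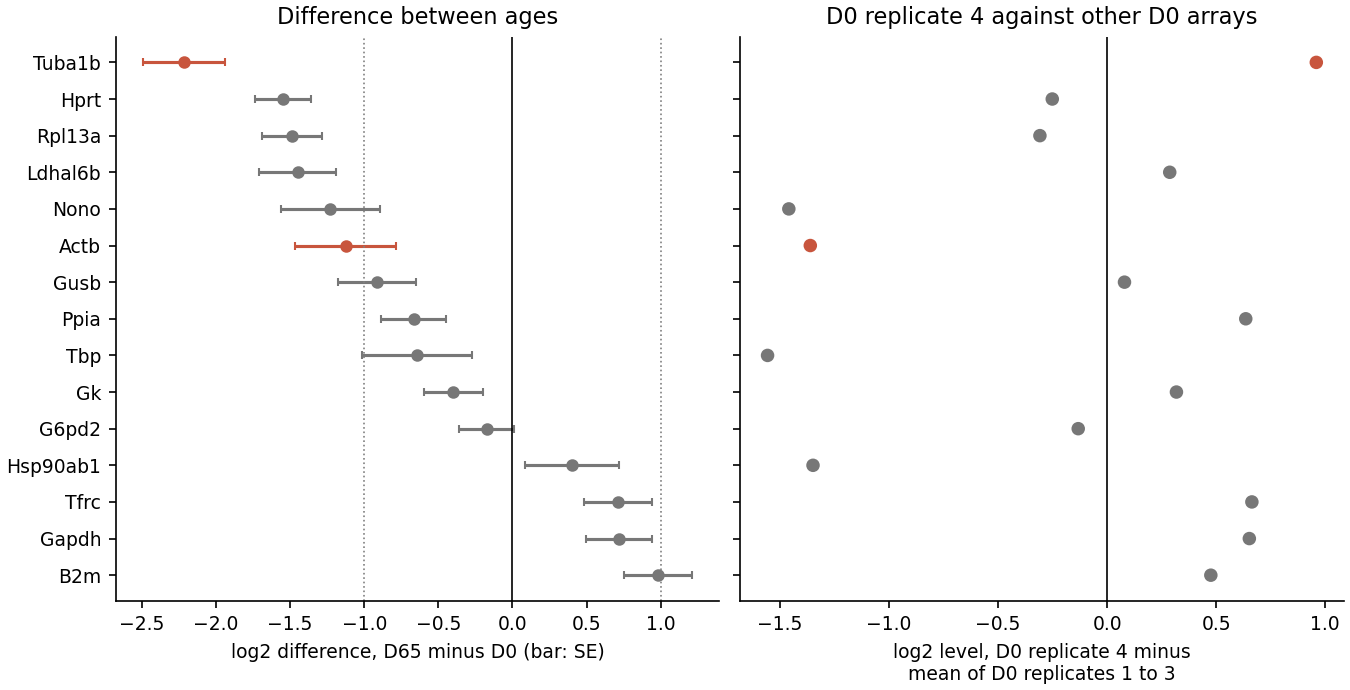
The 15 genes with 20 spots each, ordered by difference, with Tuba1b and Actb in red. Left, log2 difference of D65 minus D0 with its limma SE (n = 4 arrays per age), dotted lines marking the minimum change of 1 in each direction. Right, log2 level on D0 replicate 4 minus the mean of D0 replicates 1 to 3. Ldhal6b was not well above background at D65, so its plotted difference (-1.45) is not a measured size. Tuba1b has the lowest difference (-2.22) and the highest deviation (0.96), while Actb is at -1.13 and -1.36.

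The scaled levels depend on what is held constant, so the members were also set against other genes within the same array, where scaling cancels. Of the 13 other genes with 20 spots, Ldhal6b was well above background on 4 of 4 D0 arrays and 0 of 4 D65 arrays. Its D65 level was therefore not measured, and no ratio to it is given. Among the remaining 12, the differences between ages ran from -1.55 for Hprt to 0.98 for B2m, with a median of -0.52. Of these genes, 3 were called lower and 0 higher. At limma adjusted p under 0.05 but short of the minimum change, B2m (0.98), Gapdh (0.72) and Tfrc (0.71) were higher. By the same measure Gusb (-0.91) and Ppia (-0.67) were lower. The ratio of Tuba1b to each of these 12 genes was lower at D65 for 12 of 12, with log2 changes from -3.20 against B2m to -0.67 against Hprt. Each change equals the difference of Tuba1b minus that of the other gene. The count of 12 thus follows from Tuba1b having the lowest difference and is no separate check. The ages of the ratio were separate for 9 of 12. The genes against which they overlapped were Hprt, Rpl13a and Nono, the 3 that were themselves called lower. Against each other tested probe, the ratio of Tuba1b was lower at D65 with separate ages for 84.1% of 34879 probes (including probes well above background at 1 age only), and for 84.3% without D0 replicate 4. Such a share depends largely on where the gene's own difference lies among all probes, so it is no separate check either.

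The ratio of Actb to these genes was lower at D65 for 9 of 12, from -2.11 against B2m to -0.21 against Gusb. It was higher for the 3 called genes, each of which had itself fallen more than Actb. The ages were separate for 5 of 12, and for 8 of 12 without D0 replicate 4. Against all other tested probes the share was 27.3%, and 75.5% without D0 replicate 4. Levels were also scaled to the mean of all other genes with 20 spots in place of the 75th percentile. That mean held Actb when Tuba1b was scaled, and Tuba1b when Actb was scaled, so each member entered the reference of the other. Tuba1b was still called lower, at -1.73 (SE 0.31, limma adjusted p 0.0016). Actb did not pass, at -0.56 (SE 0.34, limma adjusted p 0.181). With Ldhal6b left out of that mean, which still held the other member, Tuba1b was at -1.80 (limma adjusted p 0.00155) and Actb at -0.63 (limma adjusted p 0.138). With Ldhal6b and the other member kept in the mean and D0 replicate 4 left out, Tuba1b stood at -1.43 (limma adjusted p 0.00038). Actb then stood at -0.88 with a limma adjusted p of 0.00921, below the minimum change. With no scaling at all, Tuba1b differed by -2.98 and Actb by -1.89, beside a median shift of -0.70 over all tested probes.

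**Figure D3:**
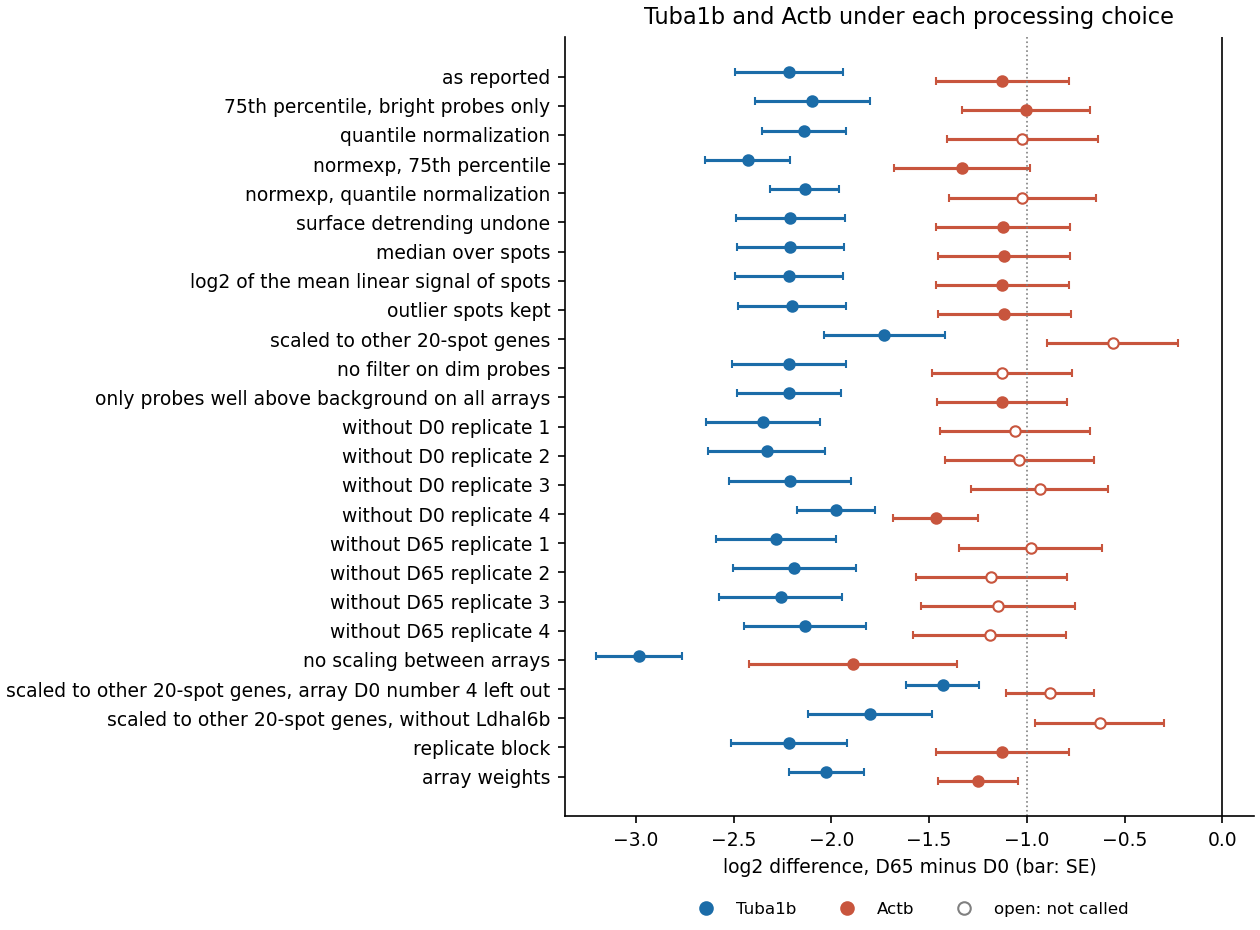
Log2 difference of D65 minus D0 for Tuba1b (blue) and Actb (red) as reported and under each other processing choice, with the SE of each fit. Filled points were called and open points were not, and the dotted line marks the minimum change. Tuba1b is filled in every setting, the 24 alternatives included, from -2.98 to -1.43. Actb is open in 13 and reaches -0.56 when scaled to the other genes with 20 spots, Tuba1b among them.

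Whether Tuba1b fell more than Actb was tested on their within-array difference. The log2 signal of Tuba1b minus that of Actb was 1.88, 1.87, 1.91 and 4.21 in D0 replicates 1 to 4, and 2.01, 1.12, 1.43 and 0.94 at D65. The 3 D0 arrays other than replicate 4 lay within 0.05 of each other, while the D65 arrays spread over 1.07 and D65 replicate 1 lay above those 3. Between 2 probes only the change of this quantity is read, not its height. It went from 2.47 ± 1.16 to 1.37 ± 0.47 (SD, n = 4), a change of -1.09, and the exact two-sided permutation p was 0.114. Without D0 replicate 4 the change was -0.51 (exact permutation p 0.143). An unequal fall of the pair was thus not established, and its estimated size moved by more than 1.5 times with that array.

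**Figure D4:**
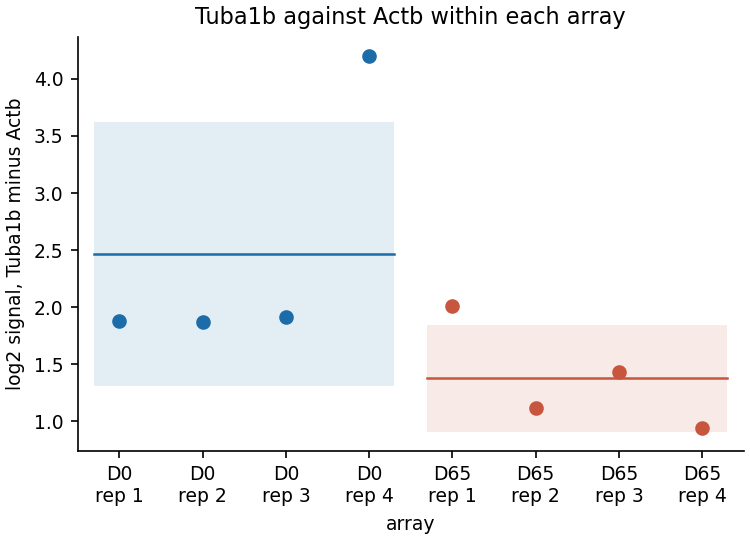
Log2 signal of Tuba1b minus log2 signal of Actb on each of the 8 arrays. Points are arrays, lines are the means and bands the SD over the 4 arrays of an age. D0 replicate 4 stands at 4.21, and the other arrays lie between 0.94 and 2.01.

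Among the 62 other genes with a symbol and a probe well above background on all 8 arrays, likeness was measured as the root mean square difference of log2 levels over the 8 arrays, each gene centred on its own mean. The genes most like Actb were Nono (0.20), Tbp (0.27) and Ppp2r3d (0.43 on its closest probe), the last a gene of the protein phosphatase 2A regulatory subunit family. The other Ppp2r3d probes differed from Actb by 0.51 and 0.61, behind Hprt (0.47). On D0 replicate 4 Nono stood at 3.61 and Tbp at 0.34, while the remaining D0 arrays had 4.99 to 5.16 and 1.78 to 2.05. The genes most like Tuba1b were Disp1 (0.39), which encodes a releaser of Hedgehog ligands, Hprt (0.55), a purine salvage enzyme, and Rpl13a (0.59), a ribosomal protein. Disp1 was highest on D0 replicate 4 too, at 5.26, the remaining D0 values being 3.47 to 4.57. Tuba1b and Actb differed by 0.94 from each other on this measure. Actb ranked 18 of the 66 probes compared with Tuba1b, and Tuba1b ranked 36 of the 66 compared with Actb.

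**Figure D5:**
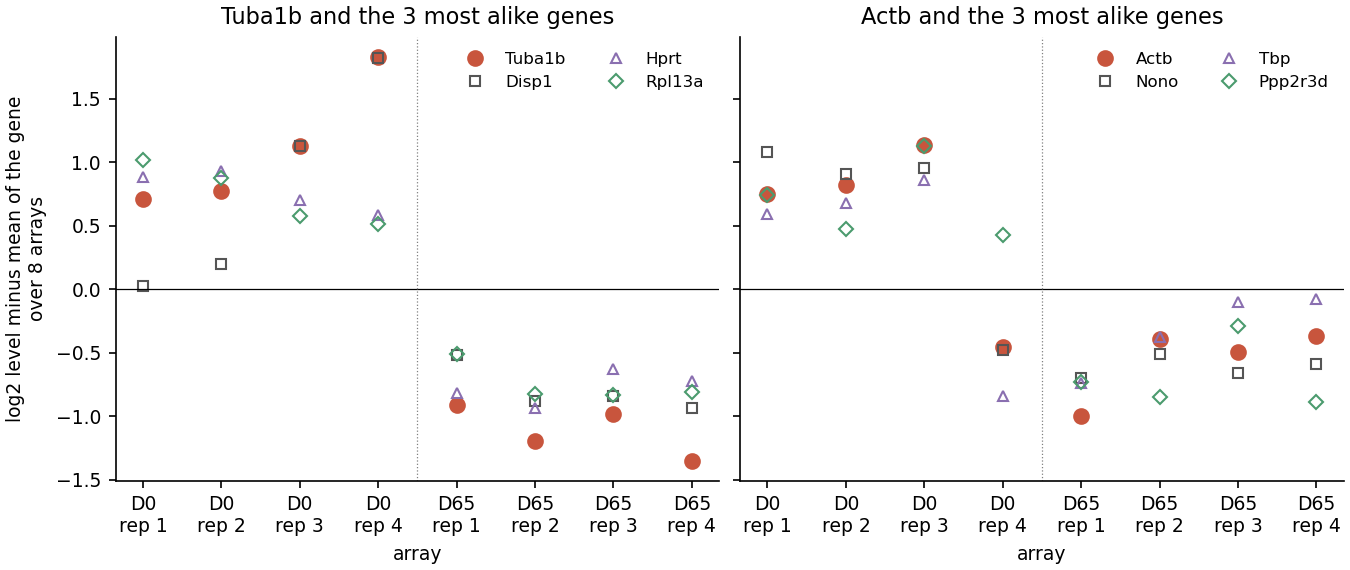
Log2 level of Tuba1b (left) and Actb (right), filled circles, with the 3 genes most like each (open symbols), on the 8 arrays, each gene minus its own mean over these arrays. Ppp2r3d is shown by its closest probe. Actb, Nono and Tbp are low together on D0 replicate 4, where Tuba1b and Disp1 are at their highest.

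The other genes of both cytoskeletal systems could hardly be followed here. Of 48 listed actins, tubulins, tubulin-folding and actin-filament factors and serum response factor cofactors, 1 actin of 6 (Actb) and 1 alpha-tubulin of 7 (Tuba1b) had a probe with a symbol, and 0 of the rest did, Acta1 and Tuba1a included. The same held for all markers listed for muscle fibres and other cell types, so the labelled tissue was not checked against its markers. Tuba1b has near-identical relatives and Actb has a close one in Actg1. Which of their transcripts the 2 probes read was not tested.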

How the data were processed

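Per the labels' protocols, RNA depleted of ribosomal RNA was labelled with Cy3 by random priming. Per the file headers, array images were quantified by Feature Extraction 11.0.1.1 (Agilent) on a grid built on mm9. The deposited intensity of a spot is background-subtracted and, on 5 of the 8 arrays, corrected for a surface trend. The authors' deposited table of normalized intensity lists 14529 probes, with 0 of the 15 genes with 20 spots among them, and was not used for levels.

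For a level, log2 of the processed signal was averaged over spots and the array's 75th percentile was subtracted. Control, negative control and outlier spots were left out. Tested probes had to be well above background throughout 1 age, that is on all its 4 arrays. The comparison of D65 with D0 used limma's moderated test (version 3.58.1, R 4.3.3), with Benjamini-Hochberg adjustment over 34948 probes. A probe with several spots was well above background where most of its spots were. On simulated data of 34880 probes this step recovered 47 of 100 probes raised by 1.5 and 67 of 100 lowered by 2 on the log2 scale, with 3 false calls. Only these probes were changed there, against 7739 called in the data, so the recovery need not hold for the data. The precision is limited by the number of arrays.

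Named genes were the members, listed cytoskeleton and cell type genes with a symbol, and the 3 genes most alike each member. Other genes with 20 spots were named beside ratios or deviations after their values were seen. The members and lists were chosen with earlier results of these data known. Symbols came from a RefSeq table of GRCm38.p6, matching 116 of 123 RefSeq probes. Alternatives changed the scaling, background correction, detrending, filter, weights, spot summary, replicate block and arrays.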

Additional observations from a re-analysis of the deposited data

Results flagged for a closer look

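Level, signal, spot SD and within-array difference of the members were searched at each age for a single outlying array. This was found in 1 of the 14 groups searched, and chance alone gives about 1 in 20. The log2 signal of Tuba1b minus that of Actb was 4.21 on D0 replicate 4, against 1.87 to 1.91 on D0 replicates 1 to 3.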

How the results depend on the processing

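Tuba1b was called lower in all 24 alternatives run, with differences from -2.98 to -1.43 and limma adjusted p from 1.74e-05 to 0.00255. Leaving out 1 array gave -2.35 to -1.98. Actb was lower in its 24 alternatives too, and the call was lost in 13. Quantile normalization gave -1.02, both on the processed signal and after normexp (limma adjusted p 0.0704 and 0.0693). Testing dim probes too gave -1.13 (0.0583), where more probes were adjusted for and the SE rose from 0.34 to 0.36. Scaled to the other genes with 20 spots, Tuba1b among them, Actb differed by -0.56 with all arrays and by -0.88 without D0 replicate 4. With Ldhal6b left out of that mean, Actb differed by -0.63. Over all alternatives its adjusted p ranged from 0.00079 to 0.181. Leaving out 1 array gave -1.47 to -0.94. The change of the within-array difference stayed negative and did not pass in 17 alternatives, between -1.30 and -0.51, with exact permutation p from 0.0571 to 0.286. Of these, taking the 75th percentile over detected probes alone could not move it, since such scaling cancels within an array. With the replicate block the test could not pass. The median SD over Actb spots moved from 0.064 to 0.085 with the detrending undone. The 7739 probes called became 4475 after normexp with the 75th percentile and 4241 after normexp and quantile scaling, and the cause was not tested. The split of calls, 3344 higher and 4395 lower, became 4200 and 3866 when the percentile was taken over detected probes alone, 1644 and 2831 after normexp with the 75th percentile, and 818 and 10323 with no scaling. The no-scaling values, the scaling without Ldhal6b and the joint choice of scaling and arrays were added after seeing the data.

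With the replicate number as a block, Tuba1b gave -2.22 (limma adjusted p 0.00255), Actb -1.13 (0.0476), and 7750 probes were called. The within-array difference changed by -1.09 with paired samples (exact permutation p 0.25, the smallest possible being 0.125). The labels do not say that a number is shared between ages, so the numbers were not taken to pair samples. Deviations of same-numbered arrays correlated at -0.12, 0.24, 0.28 and -0.13 across probes for numbers 1 to 4. For numbers 2 and 3 this was the highest correlation with any D65 array, and for 1 and 4 it was not. With 4 arrays per age this cannot settle whether samples were paired.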
